A study of Mus musculus with 4 samples.

Results

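The genes described here are 10 regulators of the meiotic divisions, the cyclins CCNA1, CCNB1 and CCNB2, the kinases CDK1, AURKA, AURKC and PLK1, the phosphatase CDC25C, the activator CDC20 and the topoisomerase TOP2A. They are listed by name for their known roles, and they are 10 of the 25825 gene symbols in the count tables. They were measured by single cell RNA-seq in the testes of 4 mice of the C56BL/6J background, which the labels give as 15 weeks old and the methods of the study as within a range of weeks that ends there. The 2 WT mice are Ctcf wt/wt in the labels, whereas the methods allow f/f, wt/f or wt/wt littermates. The 2 Ctcf-cKO mice carry Stra8-iCre-Ctcf f/Δ, that is, a floxed and a deleted allele of Ctcf with a Cre recombinase under a promoter of Stra8, a gene that germ cells switch on around entry into meiosis. Somatic cells of these mice are not the target of the Cre. Each mouse gave 1 library, numbered after the labels (1 and 2 for WT, 1 and 3 for Ctcf-cKO), and per the methods several filtrates of a Ctcf-cKO animal were combined before cell capture.

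Meiotic and mitotic divisions are driven by CDK1, a kinase that is active when bound to a B-type cyclin (CCNB1 or CCNB2) and after the phosphatase CDC25C has removed its inhibitory phosphates. CCNA1 is the A-type cyclin of the male germ line, and male mice without it arrest before the first meiotic division. The kinase PLK1 and the Aurora kinases AURKA and AURKC act on centrosomes, spindles, kinetochores and chromosomes, AURKC being the Aurora kinase enriched in meiotic germ cells. TOP2A untangles and helps to compact chromosomes, and CDC20 activates the anaphase promoting complex, a ubiquitin ligase that destroys the cyclins so that the cell can leave division. In the testis spermatogonia divide by mitosis and spermatocytes by meiosis, and spermatids, the haploid products, no longer divide.

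Promoters of many genes of cell division hold CCAAT boxes and a short element named CHR (cell cycle genes homology region), and the members were examined for these letters because 5 of them fell over all barcodes, as described further on. RefSeq start sites (GRCm38.p6) were on hand for 9 of the 10 genes. CCAAT, on either strand (ATTGG on the other), was found in the 250 bases before the start in 8 of these 9 genes, AURKC being the exception, and in 33.8% of the 32851 promoters of the table. TTTGAA, the CHR letters (TTCAAA on the other strand), was found in 4 of 9, namely CCNB2, CDC20, CDK1 and TOP2A, and in 16.0% of all promoters. These 4 held both motifs, as did 5.55% of all promoters. After the positions had been seen, the distance between CCAAT boxes was counted as well. A pair that starts 32 or 33 bases apart lay in AURKA, CCNB1, CCNB2 and CDK1, and in 0.524% of all promoters. Shown are the 120 bases before the start site for the genes with the most matches, for CCNB1 with its pair of boxes, and for AURKC as the promoter without a match. Each is read 5′ to 3′ on the strand of the gene, with CCAAT boxes and CHR letters, of whichever strand, in capitals.
Top2a, chr11:99024190-99024309, reverse strand: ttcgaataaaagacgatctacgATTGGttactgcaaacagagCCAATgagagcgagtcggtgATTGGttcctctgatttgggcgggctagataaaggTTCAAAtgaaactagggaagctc
Cdk1, chr10:69352913-69353032, reverse strand: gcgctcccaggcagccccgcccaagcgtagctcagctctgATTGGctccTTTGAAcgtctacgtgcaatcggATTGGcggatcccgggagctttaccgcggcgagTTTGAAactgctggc
Ccnb2, chr9:70421555-70421674, reverse strand: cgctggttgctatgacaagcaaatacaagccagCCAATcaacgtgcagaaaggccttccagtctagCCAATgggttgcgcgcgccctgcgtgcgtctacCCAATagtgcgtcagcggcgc
Cdc20, chr4:118437344-118437463, reverse strand: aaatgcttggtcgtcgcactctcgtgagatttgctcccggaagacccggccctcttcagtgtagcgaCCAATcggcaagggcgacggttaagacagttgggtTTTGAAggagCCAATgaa
Ccnb1, chr13:100786487-100786606, reverse strand: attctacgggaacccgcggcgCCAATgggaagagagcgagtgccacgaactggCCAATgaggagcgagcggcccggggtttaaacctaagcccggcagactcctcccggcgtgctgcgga
Aurkc, chr7:6995265-6995384, forward strand: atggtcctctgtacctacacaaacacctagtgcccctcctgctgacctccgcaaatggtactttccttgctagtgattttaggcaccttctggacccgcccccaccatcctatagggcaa

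In the 250 bases before the start, TOP2A held 6 CCAAT boxes and 2 CHR matches, CDK1 held 3 and 2, and CCNB2 held 3 and 1, the CHR match of CCNB2 lying 167 bases before the start and outside the stretch shown. A match is a run of letters and not a measured binding site, and no binding or methylation was measured in these files. In the GENCODE annotation of GRCm38, Top2a covers chr11:98992943-99024189, Cdk1 covers chr10:69335146-69352938 and Ccnb2 covers chr9:70407692-70421547, all on the reverse strand. Ccnb1 lies at chr13:100778650-100786570 on the reverse strand. The RefSeq starts of Cdk1, Cdc20, Ccnb1 and Aurkc lie inside the GENCODE genes, so that the stretches shown for them overlap the annotated gene in part. The annotation also holds a processed pseudogene of Ccnb1 on chromosome 7 and one of Ccnb2 on chromosome 8, so that counts of CCNB1 and CCNB2 may include reads shared with these copies.

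The total was 6701235 and 4859455 counts for the WT libraries against 2652665 and 1593546 for the Ctcf-cKO libraries, so that both Ctcf-cKO libraries were the shallower ones. They listed 5603 to 6474 barcodes each. Barcodes with fewer than 200 genes, which can hold free RNA rather than cells, took 1.57% and 12.1% of the WT counts, as compared with 40.8% and 46.9% of those of Ctcf-cKO. CTCF, the deleted gene, had 110 and 49 counts in WT against 4 and 7 in Ctcf-cKO (log2 fold change −2.19, standard error 0.67, adjusted p = 0.0292 from the quasi-likelihood test of edgeR), a call that was lost without WT replicate 1 (−1.84, adjusted p = 0.181) and without Ctcf-cKO replicate 1 (−1.54, adjusted p = 0.179), in DESeq2 (−2.17, adjusted p = 0.0574) and in barcodes with at least 200 genes (−2.80, adjusted p = 0.0663). In the cell classes described further on CTCF had too few counts to be tested. In spermatid-like cells it had 9.05 and 6.95 CPM in WT against 0 and 16.5 CPM in Ctcf-cKO. Ctcf-cKO replicate 3 thus lay above both WT mice there, from 4 counts. In spermatocyte-like cells CTCF had 0 and 15 counts in WT against 0 and 0 in Ctcf-cKO. Any pair of libraries shared 723 to 1310 barcode sequences over all barcodes, and 1 sequence among the barcodes kept as cells, shared by WT replicate 2 and Ctcf-cKO replicate 1. In the tables a count of 4 was frequent and a count of 5 was rare, 23.1% against 2.86% of the nonzero entries in Ctcf-cKO replicate 3, so that a count may not stand for 1 molecule. Intervals from counts cover counting error only, and where a molecule gave several counts they are too narrow for that as well.

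Summed over all barcodes of each library, all 10 regulators had a negative log2 fold change, and 5 of them fell in Ctcf-cKO past the threshold (adjusted p of 0.05), namely CCNA1, CCNB1, CCNB2, PLK1 and TOP2A. None rose. Of the 14553 genes tested 10.1% fell and 18.4% rose. The median log2 fold change of the members was −0.78, beside −0.04 over all genes tested, and the summed level of the 10 genes was 810 and 826 CPM (counts-per-million of the library total) in WT and 398 and 513 CPM in Ctcf-cKO. For 8 of the 10 members both Ctcf-cKO mice lay below both WT mice, as they did for 35.8% of all genes tested. Over all barcodes, fewer cells of a type and less RNA per cell cannot be told apart.

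**Figure D1:**
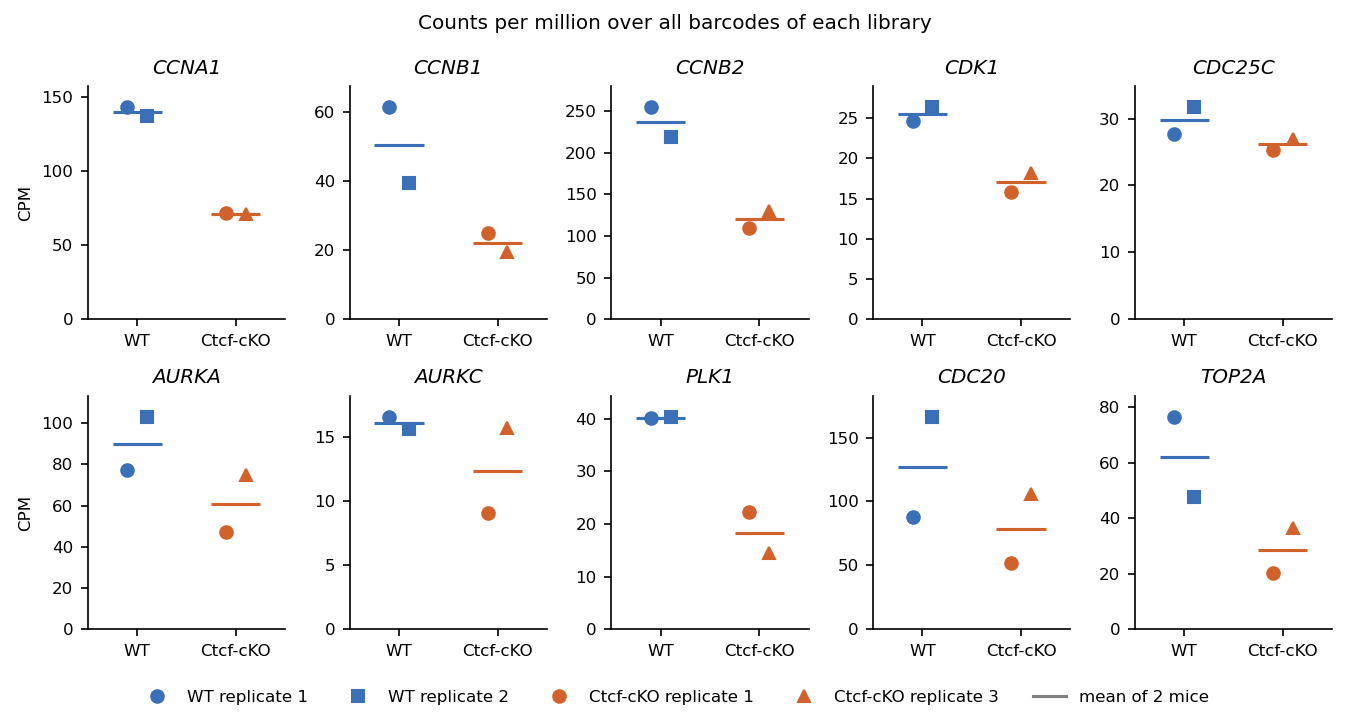
Level in CPM (scaled counts) of the 10 division regulators over all barcodes, by genotype, with a point per mouse (2 WT, 2 Ctcf-cKO) and a line at the mean of 2 mice. The points of the genotypes do not overlap for 8 genes, and for AURKC and CDC20 a Ctcf-cKO mouse lies above a WT mouse.

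Among the cyclins, CCNB2 had 1708 and 1063 counts in WT against 291 and 208 in Ctcf-cKO, which is 237 ± 25.5 CPM against 120 ± 14.7 CPM (SD, n = 2 each; edgeR adjusted p = 0.00635). Its log2 fold change was −0.92 (standard error 0.20). CCNA1 had 958 and 665 counts in WT against 190 and 113 in Ctcf-cKO. The levels were close within each genotype, 143 and 137 CPM against 71.6 and 70.9 CPM, and the log2 fold change was −0.91 (standard error 0.22, adjusted p = 0.00956, edgeR). CCNB1 had 412 and 192 counts in WT against 66 and 31 in Ctcf-cKO. Its levels were 61.5 and 39.5 CPM against 24.9 and 19.5 CPM, with WT replicate 1 the highest and no overlap of the genotypes, and the log2 fold change was −1.10 (standard error 0.34, adjusted p = 0.0295, edgeR). The 3 cyclins thus fell by similar sizes, with standard errors that overlap.

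Among the kinases, only PLK1 passed the threshold. It had 269 and 196 counts in WT against 59 and 23 in Ctcf-cKO, or 40.1 and 40.3 CPM against 22.2 and 14.4 CPM (log2 fold change −1.04, standard error 0.35, adjusted p = 0.0429, edgeR). The WT mice were nearly equal in PLK1 and the Ctcf-cKO mice lay well below them. CDK1 had 165 and 128 counts in WT against 42 and 29 in Ctcf-cKO, which is 24.6 and 26.3 CPM against 15.8 and 18.2 CPM. The genotypes did not overlap in CDK1, but the difference did not pass (log2 fold change −0.52, standard error 0.37; adjusted p = 0.316 by edgeR). AURKA had 516 and 500 counts in WT against 125 and 119 in Ctcf-cKO, with 77.0 and 103 CPM against 47.1 and 74.7 CPM. Its highest Ctcf-cKO mouse came close to its lowest WT mouse (log2 fold change −0.52, standard error 0.29, adjusted p = 0.206, edgeR). AURKC had 111, 76, 24 and 25 counts in the order of the libraries, and Ctcf-cKO replicate 3, at 15.7 CPM, lay at the level of the WT mice (16.6 and 15.6 CPM). Its log2 fold change was −0.35 (standard error 0.46, adjusted p = 0.609, edgeR).

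CDC25C, the phosphatase that switches CDK1 on, was the member closest to no difference. It had 186 and 154 counts in WT against 67 and 43 in Ctcf-cKO, or 27.8 and 31.7 CPM against 25.3 and 27.0 CPM (log2 fold change −0.12, standard error 0.34, adjusted p = 0.817, edgeR). CDC20 had 591 and 807 counts in WT against 137 and 169 in Ctcf-cKO. At 88.2 and 166 CPM against 51.7 and 106 CPM the spread within each genotype was wide and Ctcf-cKO replicate 3 lay above WT replicate 1 (log2 fold change −0.65, standard error 0.36, adjusted p = 0.199, edgeR). TOP2A had 512 and 231 counts in WT against 54 and 58 in Ctcf-cKO. Its levels were 76.4 and 47.5 CPM against 20.4 and 36.4 CPM, so that WT replicate 1 was the highest and the genotypes did not overlap (log2 fold change −1.08, standard error 0.36, adjusted p = 0.0387, edgeR).

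These calls rest on 2 mice a genotype, and each was lost without some mouse. Without WT replicate 1, CCNB1 (−0.82, adjusted p = 0.168), PLK1 (−1.11, adjusted p = 0.0715) and TOP2A (−0.77, adjusted p = 0.190) no longer passed and CDC20 did (−1.10, adjusted p = 0.0125, edgeR throughout). Without WT replicate 2 only PLK1 was lost (−1.04, adjusted p = 0.0679). Without Ctcf-cKO replicate 1 all 5 were lost, at −0.94 for CCNA1, −1.33 for CCNB1, −0.81 for CCNB2, −1.44 for PLK1 and −0.72 for TOP2A (adjusted p = 0.101, 0.094, 0.128, 0.0763 and 0.283), and AURKC stood at 0.0051. Without Ctcf-cKO replicate 3 CCNA1 (−0.91, adjusted p = 0.0943), CCNB1 (−0.96, adjusted p = 0.171), CCNB2 (−1.05, adjusted p = 0.0569) and PLK1 (−0.80, adjusted p = 0.232) were lost, and TOP2A was kept. In barcodes with at least 200 genes, CCNA1, CCNB2 and TOP2A still fell, whereas CCNB1 (−0.85, adjusted p = 0.120) and PLK1 (−0.86, adjusted p = 0.117) did not pass. In barcodes with fewer than 200 genes, which held 48.1% and 56.9% of the TOP2A counts of the Ctcf-cKO mice, none of the 5 passed and TOP2A turned (0.65, adjusted p = 0.727).

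Markers of germ and somatic cells moved with genotype in the same libraries. Of 26 spermatocyte markers tested, 13 fell and none rose, with a median log2 fold change of −0.94 and a summed level of 5606 and 5304 CPM in WT against 3316 and 3185 CPM in Ctcf-cKO. Of 19 round spermatid markers 14 fell (median −0.83), whereas of 16 elongating spermatid markers 1 rose and none fell (median 0.20). All 12 Leydig markers rose, from 606 and 240 CPM to 6202 and 5564 CPM, as did all 13 Sertoli markers tested and 10 of 12 macrophage markers. The members' median lay near those of the spermatocyte and round spermatid lists. The part that cell composition takes in the difference of the 10 regulators was not tested.

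**Figure D2:**
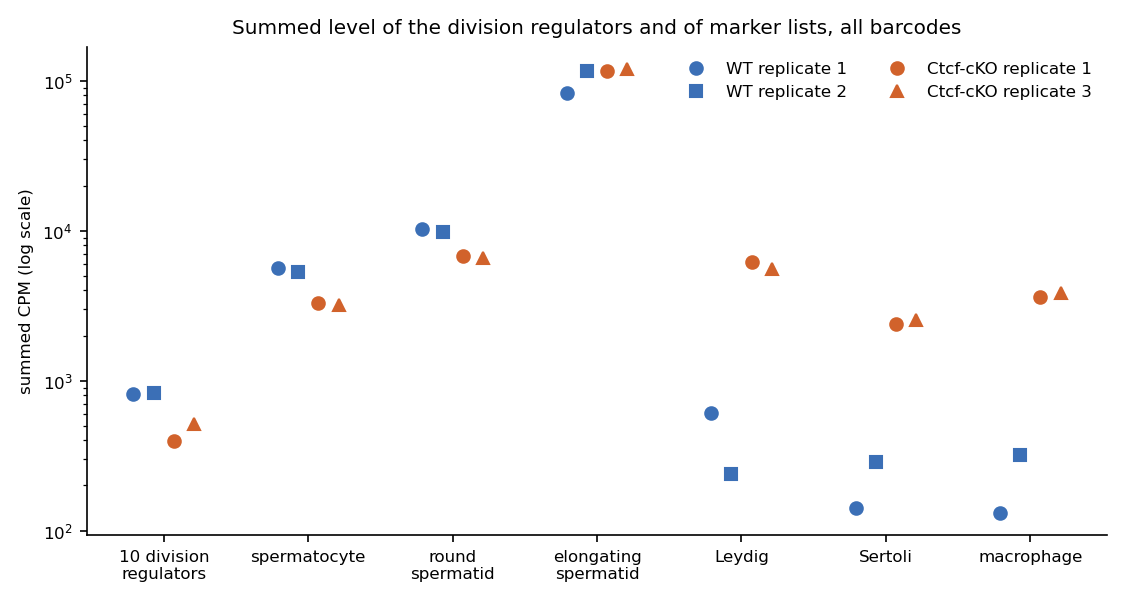
Summed CPM over all barcodes (log scale) of the 10 division regulators and of 6 lists of cell type markers, with a point per mouse. Spermatocyte and round spermatid markers are lower in both Ctcf-cKO mice, as is the sum of the regulators, and Leydig, Sertoli and macrophage markers are higher.

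Most partners of the 10 regulators did not pass the test over all barcodes, and those that did included genes that fell and genes that rose. Of 14 cyclin and CDK partners tested 2 fell, CDC25A (−0.995), a phosphatase that activates CDKs, and CDKN2D (−1.05), an inhibitor of CDKs, and none rose. Of 20 genes of the anaphase promoting complex and its regulators, the subunit CDC27 (−0.99) and the cohesin protease ESPL1 (−1.40) fell, and the subunits ANAPC5 (1.62), ANAPC7 (2.12) and ANAPC16 (0.99) rose. The genes of this list with the most counts did not pass, ANAPC13 (0.24), ANAPC11 (0.24) and FZR1 (−0.23), the activator that takes over from CDC20. Of 16 genes of the spindle checkpoint and kinetochore, CENPF (−1.81) and MEIKIN (−1.85), a meiotic kinetochore protein that recruits PLK1, fell, and CENPA (3.41), the histone of the centromere, rose from 14 and 2 counts in WT to 29 and 26 in Ctcf-cKO. At 2.09 and 0.41 CPM in WT against 10.9 and 16.3 CPM in Ctcf-cKO, CENPA passed the filter on low genes through the Ctcf-cKO mice alone. Its values are thus a description.

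Of 12 Aurora and Polo kinase partners tested, 3 fell and 1 rose. Those that fell were AURKB (−2.54), with 91 and 55 counts in WT against 2 and 6 in Ctcf-cKO, BIRC5 (−0.89) and CDCA8 (−1.22). ARPP19 (0.88), which inhibits the phosphatase that opposes CDK1, rose, and the kinase HASPIN, the gene of these lists with the most counts, at 781 and 645 CPM in WT and 429 and 529 CPM in Ctcf-cKO, did not pass (−0.51, adjusted p = 0.0558, edgeR). Of 12 genes of chromosome condensation and topoisomerases, the condensin subunits SMC4 (−1.04), NCAPG (−2.03) and NCAPG2 (−2.00) fell, and NCAPH2 (1.57) and the other topoisomerases, TOP1 (1.37) and TOP2B (1.88), rose. In barcodes with at least 200 genes TOP2A still fell (−1.49, adjusted p = 0.0160, edgeR), whereas TOP1 (1.07, adjusted p = 0.0638) and TOP2B (1.58, adjusted p = 0.142) did not pass. In all, 12 of the 74 partners tested fell and 8 rose, beside 10.1% and 18.4% of all genes. Of these 20 calls 6 were lost without WT replicate 1, 3 without WT replicate 2, 16 when Ctcf-cKO replicate 1 was left out and 14 when replicate 3 was (adjusted p of those lost 0.0542 to 0.298), and ANAPC5 alone passed in all 4 cases. Sizes moved as well, AURKB from −3.94 to −1.67 and NCAPG from −3.49 to −1.20 (without Ctcf-cKO replicates 3 and 1), CENPF from −2.31 to −1.13 and TOP2B from 2.85 to 1.22 (without WT replicates 2 and 1), and CENPA from 2.73 to 4.90 in the same order. With a mouse left out NCAPG2 ran from −2.73 to −1.43, CDC27 from −1.38 to −0.54 and CDCA8 from −1.58 to −0.86. SMC4 ran from −1.36 to −0.70, ANAPC7 from 1.68 to 2.56, TOP1 from 1.03 to 1.72 and ARPP19 from 0.64 to 1.06. In barcodes with at least 200 genes 8 of the 20 were lost (ANAPC16, AURKB, CDKN2D, MEIKIN, NCAPG, NCAPG2, TOP1 and TOP2B), and in barcodes with fewer than 200 genes 12 of the 14 that could be tested were lost, ANAPC5 among them, and SMC4 changed sign (0.085). CDKN2D and TOP2B were also lost in DESeq2, CDCA8, CDKN2D and ESPL1 with counts divided by 4, and ANAPC16 without a filter on low genes.

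To place the regulators in cell classes, 1653 barcodes were kept as cells (134 and 912 in WT, 314 and 293 in Ctcf-cKO) and clustered without the 10 genes and their partners. Of 13 clusters, cluster 4 was named spermatocyte-like (164 cells, 17 of 27 spermatocyte markers higher, although LYAR of the round spermatid list led it by p), clusters 2 and 7 round spermatid-like (214 and 66 cells, 14 and 16 of 19 markers) and cluster 3 elongating spermatid-like (188 cells, all 16 markers). Cluster 7 also had 11 spermatocyte markers higher and was the deepest, and none of the 10 leading genes of these clusters by fold was a marker of its class. Of WT replicate 1, only 13.4% to 20.9% of a member's counts lay in barcodes kept as cells, as compared with 43.0% to 68.5% in WT replicate 2 and 37.3% to 79.3% in the Ctcf-cKO mice. Values by class thus leave out most of the WT replicate 1 counts that enter the sums over all barcodes.

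Spermatocyte-like cells had the highest mean level of 9 of the 10 regulators among the 4 germ-like clusters, and elongating spermatid-like cells had the lowest of 8, the exceptions being CDK1 and CDC25C. These are descriptions, as the clusters come from the same cells, and the means pool the genotypes. TOP2A in spermatocyte-like cells of the Ctcf-cKO mice (10.7 and 0 CPM) lay below every mouse of cluster 7 (27.3 to 117 CPM), and CDC25C leads through Ctcf-cKO replicate 3 alone. In Ctcf-cKO replicate 1 the order of CDK1 turned, on 3 counts in spermatocyte-like cells and 15 over all spermatid-like clusters, too few to set an order. It had 16.1 CPM in spermatocyte-like cells, 21.2 CPM in cluster 7 and 36.1 CPM in elongating spermatid-like cells. The summed level of the 10 genes was 1723 and 1587 CPM (WT) and 929 and 1685 CPM (Ctcf-cKO) in spermatocyte-like cells. It was 863, 771, 1004 and 857 CPM in cluster 7, in the order of the libraries, and 975, 728, 466 and 1518 CPM in cluster 2. In elongating spermatid-like cells it was 98.3, 201, 155 and 270 CPM, below every value of the other germ-like clusters.

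**Figure D3:**
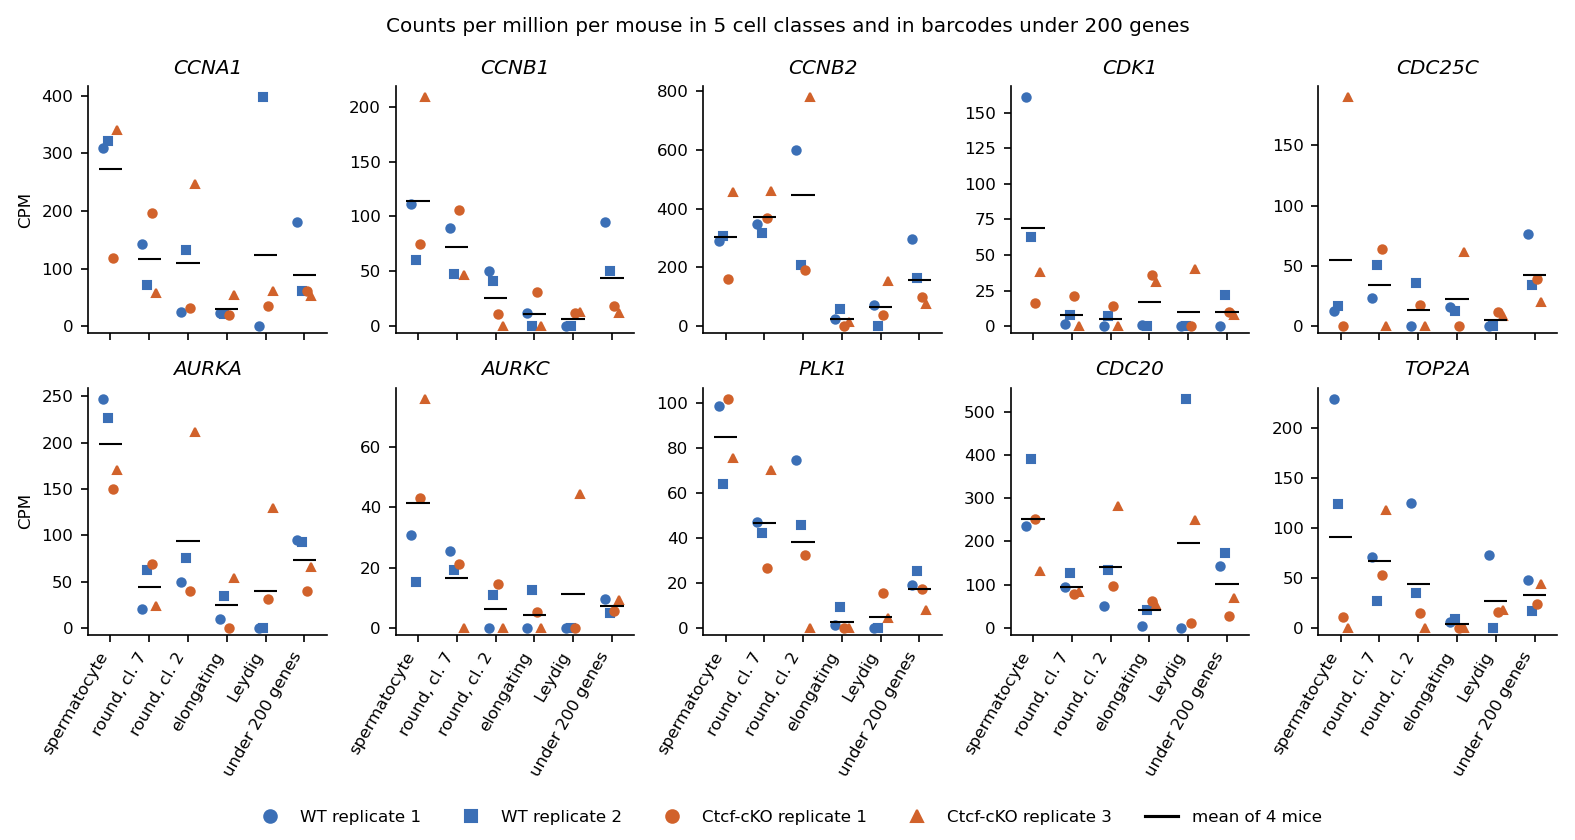
CPM of each regulator per mouse (points, 2 WT and 2 Ctcf-cKO) in spermatocyte-like, round spermatid-like (clusters 7 and 2), elongating spermatid-like and Leydig-like cells and in barcodes under 200 genes, with a line at the mean of 4 mice. CCNB2 stays high through the round spermatid-like clusters, whereas CDK1 is near 0 there in the WT mice and reaches 21.2 CPM in Ctcf-cKO replicate 1.

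CCNB2 was the exception among the cyclins. It had a mean of 303 ± 120 CPM in spermatocyte-like cells, 371 ± 61.3 CPM in cluster 7 and 444 ± 291 CPM in cluster 2 (SD over 4 mice), 3 values that overlap. In cluster 2 the highest value, 777 CPM, came from Ctcf-cKO replicate 3, which has 6 cells there. The lowest mouse of cluster 2 had 191 CPM, so that no rise to this cluster is shown. CCNB2 had 24.7 ± 25.3 CPM in elongating spermatid-like cells, where the highest mouse (59.6 CPM) lay below the lowest of every other germ-like cluster (161 CPM). CCNA1 had 272 ± 104 CPM in spermatocyte-like cells, followed by 117 ± 64.7 and 109 ± 104 CPM in clusters 7 and 2, and 29.7 ± 16.2 CPM in elongating spermatid-like cells. Its order among the first 3 is not set apart by the spread of mice. CCNB1 went from 114 CPM through 72.6 and 25.6 CPM to 10.8 CPM in the same order.

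The kinases varied in how far their classes overlapped. AURKA had 150 to 247 CPM over the 4 mice in spermatocyte-like cells and 20.3 to 69.1 CPM in cluster 7, with no overlap, although cluster 2 reached 212 CPM in Ctcf-cKO replicate 3, which has 6 cells there. In Leydig-like cells of the same mouse AURKA had 129 CPM (29 counts in 6 of 77 cells), above every mouse of cluster 7, and CCNB2 had 156 CPM. PLK1 had 64.2 to 102 CPM in spermatocyte-like cells, 26.6 to 70.4 CPM in cluster 7, 0 to 75.0 CPM in cluster 2 and at most 9.41 CPM in elongating spermatid-like cells. AURKC was low throughout, with 15.2 to 75.7 CPM in spermatocyte-like cells from 4 to 9 counts a mouse, and at most 25.3 CPM in cluster 7, which overlap, and at most 14.4 and 12.5 CPM in cluster 2 and in elongating spermatid-like cells. In Leydig-like cells of Ctcf-cKO replicate 3 it had 44.5 CPM.

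CDK1 had 160.6, 62.5, 16.1 and 37.9 CPM in spermatocyte-like cells, in the order of the libraries, and 0 to 21.2 CPM in cluster 7 and 0 to 14.4 CPM in cluster 2. In WT the highest level of CDK1 in any spermatid-like cluster was 8.19 CPM, so that CDK1 and its partner CCNB2 had unlike patterns across the WT classes. CDC25C was scattered, with 0 to 189 CPM in spermatocyte-like cells, the highest value resting on 10 counts in 3 cells. CDC20 had 133 to 390 CPM in spermatocyte-like cells and 79.7 to 127 CPM in cluster 7. Leydig-like cells, which should lack these genes, had 0, 529, 11.8 and 249 CPM of CDC20, the second being 4 counts in 1 of 8 cells where 3 counts are 397 CPM, so that low levels of CDC20, and of AURKA, AURKC, CCNA1, CCNB2 and CDK1 in Ctcf-cKO replicate 3, cannot be told apart from background. CCNA1 had 62.2 CPM in the Leydig-like cells of that mouse, and barcodes with fewer than 200 genes had 39.8 to 95.3 CPM of AURKA and a mean of 44.2 CPM of CCNB1. CCNB2 had 76.2 to 295 CPM in those barcodes (mean 158.5 CPM), which reaches its lower values in the germ-like clusters. The 10 genes summed to 962, 644, 343 and 364 CPM there, in the order of the libraries, and to 147, 926, 173 and 725 CPM in Leydig-like cells. The higher of these reach the round spermatid-like clusters.

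Between genotypes, spermatocyte-like cells had no regulator past the threshold. The sums held 161915 and 592213 counts of 15 and 100 cells in WT, and 186309 and 52806 counts of 30 and 19 cells in Ctcf-cKO. Of 3975 genes tested by edgeR 0.73% passed, all of them higher in Ctcf-cKO, and 352 (8.86%) had an unadjusted p under 0.05. Of the regulators 8 were tested and 0 passed, in edgeR as in DESeq2, and 1 of them, TOP2A, had an unadjusted p under 0.05. CDC25C and AURKC had too few counts to be tested. AURKC lay higher in both Ctcf-cKO mice (42.9 and 75.7 CPM against 30.9 and 15.2 CPM in WT), from 4 to 9 counts a mouse. Of the 3975 genes tested 684 did so. Without batch correction Ctcf-cKO replicate 3 had 0 CPM of AURKC. The median of the 8 was −0.53, beside −0.10 over all genes, and 3 of the 8 (TOP2A, CDK1 and AURKA) had both Ctcf-cKO mice below both WT mice, as did 26.1% of all genes tested. For AURKA this held in the reported set of cells alone.

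TOP2A showed the largest difference of the members in these cells. Its counts were 37 and 73 in WT against 2 and 0 in Ctcf-cKO, or 229 and 123 CPM against 10.7 and 0 CPM, where 3 counts in Ctcf-cKO replicate 3 would be 56.8 CPM. It was detected in 9 of 15 and 18 of 100 cells in WT, and in 1 of 30 and 0 of 19 cells in Ctcf-cKO, whose exact binomial 95% intervals for cells with a count, counting error only, reach 17.2% and 17.6%. In Leydig-like cells it was detected in 1 of 8, 0 of 8, 1 of 53 and 2 of 77 cells, at median depths of 4488, 981.5, 3697 and 2763 counts a cell beside 3766, 1212, 3990.5 and 2272 in spermatocyte-like cells. With 8 Leydig-like cells in each WT mouse, whose exact 95% intervals reach 52.7% and 36.9%, the WT shares cannot be set against this background with any precision, and the Ctcf-cKO shares were about those of Leydig-like cells. In the deeper cells of cluster 7 (median 38472, 14253, 10907 and 42589.5 counts a cell) TOP2A was detected in 9 of 15 and 7 of 39 WT cells and in 3 of 10 and 2 of 2 Ctcf-cKO cells. TOP2A passed the filter on low genes here through the WT mice alone, where it is high, so that its fitted values are a description. The log2 fold change was −4.27 (standard error 1.096, edgeR adjusted p = 0.149, unadjusted p = 0.00397). With a mouse left out it ran from −3.77 (without Ctcf-cKO replicate 3) to −8.47 (without Ctcf-cKO replicate 1, which leaves 0 counts in Ctcf-cKO, so that this value depends on the fit and is no bound). The ratio of the summed levels was 0.0573 (0.00686 to 0.212, counting error only and if a count is 1 molecule).

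The difference of TOP2A kept its direction over 8 choices of cells and clustering, of which 7 could be fitted. These choices draw on the same 4 libraries and share cells, so that they are a description and no independent support. How many other genes keep a direction in this way was not counted. In each of the 8 both Ctcf-cKO mice lay below both WT mice, and the Ctcf-cKO mice never held more than 2 counts of TOP2A together. In 3 of the 8 they held none. Set at a floor of 3 counts over the genotype, the level was 9.30-fold lower with at least 500 genes a cell. With 811 cells above 3 times the plateau of their library it was 9.07-fold lower. The third, without batch correction, left 7 and 4 cells in Ctcf-cKO and gave 2.34-fold at the same floor. As a count may not stand for 1 molecule, none of these sizes is a bound. Among all alternatives run for TOP2A in these cells, the fit without a filter on low genes alone passed (−4.44, adjusted p = 0.0331, edgeR), and the others had adjusted p-values of 0.0929 to 1, DESeq2 giving 0.138.

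**Figure D4:**
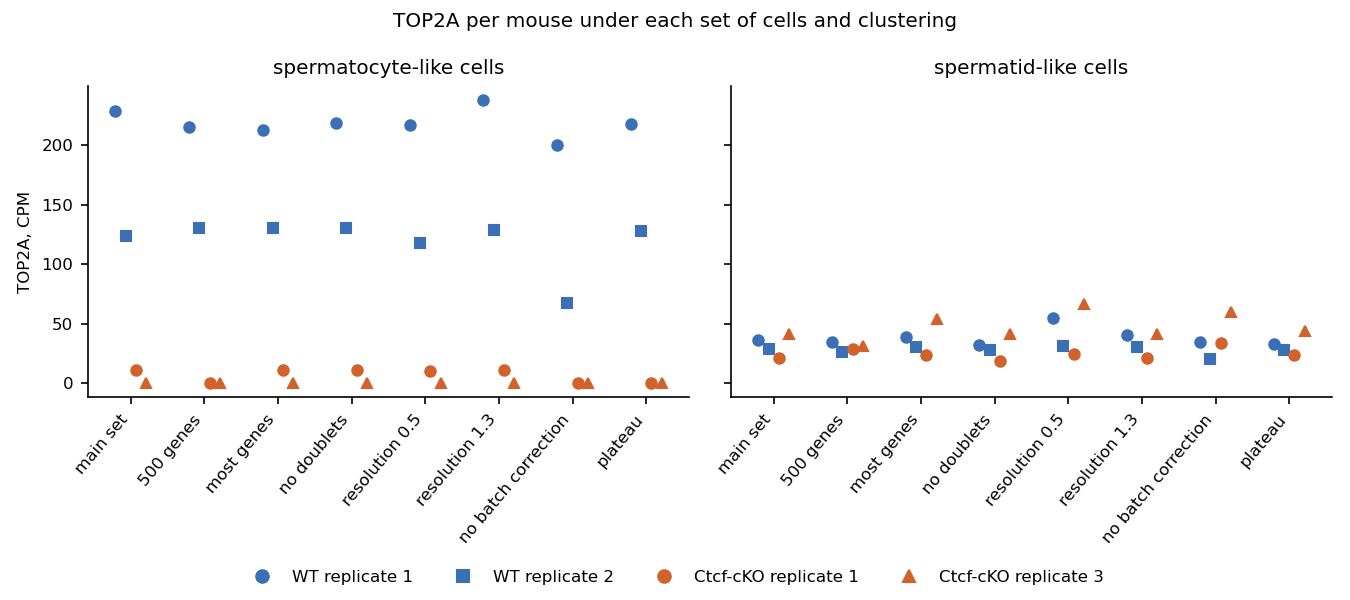
TOP2A in CPM per mouse (points, 2 WT and 2 Ctcf-cKO) in spermatocyte-like and spermatid-like cells, for the set of cells reported and 7 other choices of cells or clustering along the x axis. In spermatocyte-like cells the Ctcf-cKO points stay at or near 0 under every choice, and in spermatid-like cells the genotypes lie together.

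CDK1 had 26 and 37 counts in WT against 3 and 2 in Ctcf-cKO in spermatocyte-like cells, and the genotypes did not overlap. CDK1 too passed the filter on low genes through the WT mice alone. Its log2 fold change was −2.13 (standard error 1.03, adjusted p = 0.622, edgeR; −2.58 without WT replicate 2 to −1.46 without WT replicate 1), and it was detected in 5 of 15 and 10 of 100 WT cells and in 1 of 30 and 1 of 19 Ctcf-cKO cells. Without batch correction the genotypes overlapped in CDK1 (159 and 26.8 CPM in WT, 58.9 and 101 CPM in Ctcf-cKO), and in the reported set the 37.9 CPM of Ctcf-cKO replicate 3 lay below the 40.0 CPM of its Leydig-like cells. AURKA had 247 and 226 CPM against 150 and 170 CPM (−0.52, standard error 0.55), the last from 9 counts. In the 7 other choices of cells or clustering, Ctcf-cKO replicate 3 had 175 to 608 CPM of AURKA and lay above a WT mouse. The genotypes overlapped in CCNA1 (−0.54), CCNB2 (−0.03) and CDC20 (−0.59), and in PLK1 (0.27) and CCNB1 (0.68), whose values were positive. With a Ctcf-cKO mouse left out CCNA1 ran from −1.26 (without replicate 3) to −0.12 (without replicate 1) and CCNB1 from 0.036 to 1.11 in the same order, and CDC20 ran from −1.51 (without Ctcf-cKO replicate 1) to −0.069 (without WT replicate 2). CCNA1 in these cells had 309 and 321 CPM in WT and 118 and 341 CPM in Ctcf-cKO, so that Ctcf-cKO replicate 1 was low and replicate 3 was not.

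Markers of other cells moved with genotype in these sums too. Leydig markers had 167 and 198 CPM in WT and 8325 and 4166 CPM in Ctcf-cKO, and 7 of the 9 tested passed. With so low a level in WT, most of the 9 passed the filter on low genes through the Ctcf-cKO mice, where they are high, so that this count is a description. Markers of elongating spermatids took 21863, 78274, 77516 and 75579 CPM in the order of the libraries, and the summed spermatocyte markers 9653, 7494, 6038 and 4905 CPM, with a median log2 fold change of −0.82 and none of 18 past the threshold. Spermatocyte markers were thus lower in both Ctcf-cKO mice beside TOP2A. The part of free RNA and of the mix of spermatocyte stages in these differences was not tested.

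Spermatid-like cells of clusters 2, 3 and 7 together gave sums of 1435853 and 2158955 counts in WT (67 and 294 cells), and of 659118 and 243095 counts in Ctcf-cKO (73 and 34 cells). The mix of clusters differed between the mice, with 12, 165, 31 and 6 cells of cluster 2, 40, 90, 32 and 26 of cluster 3 and 15, 39, 10 and 2 of cluster 7, and its part in the values below was not tested. Leydig markers had 61.3 and 174 CPM in WT against 2086 and 1201 CPM in Ctcf-cKO, with 7 of 10 tested higher, and red blood cell markers 3.48 and 12.5 CPM against 1006 and 633 CPM. Markers this low in WT may have passed the filter on low genes through the Ctcf-cKO mice alone. All 10 regulators were tested and 0 passed, in edgeR as in DESeq2. Of 8138 genes tested by edgeR 0.332% passed, all higher in Ctcf-cKO, and 807 (9.92%) had an unadjusted p under 0.05, none of them a regulator. The median of the 10 was −0.17, beside −0.06 over all genes, and the genotypes overlapped in 9 of the 10. TOP2A had 52 and 62 counts in WT against 14 and 10 in Ctcf-cKO, or 36.2 and 28.7 CPM against 21.2 and 41.1 CPM (−0.28, standard error 0.64). CCNB2, the member with the most counts here, had 248, 481, 122 and 63, or 173 and 223 CPM against 185 and 259 CPM. Its log2 fold change of 0.01 had a standard error of 0.30, and the ratio of its sums was 1.01 (0.856 to 1.19, counting error only and if a count is 1 molecule), in sums that pool clusters in which its level differs.

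CDK1 was the regulator whose genotypes did not overlap in spermatid-like cells, and it lay higher in Ctcf-cKO, as did 23.4% of all genes tested. It had 2 and 14 counts in WT against 15 and 4 in Ctcf-cKO, or 1.39 and 6.48 CPM against 22.8 and 16.5 CPM (log2 fold change 2.16, standard error 1.097, adjusted p = 0.557, edgeR). CDK1 passed the filter on low genes here through the Ctcf-cKO mice alone, where it is high, so that these values are a description. The genotypes overlapped above 3 times the plateau (6.72 CPM in Ctcf-cKO replicate 3 against 7.47 CPM in WT replicate 2) and without batch correction (0 CPM in Ctcf-cKO replicate 3). Of the 19 counts in Ctcf-cKO, 11 lay in elongating spermatid-like cells, in 3 cells. In the Leydig-like cells of Ctcf-cKO replicate 3 the level of CDK1 was 40.0 CPM, above its spermatid-like level, and in those of Ctcf-cKO replicate 1, the mouse with 15 of the 19 counts, it was 0 CPM (0 counts in 53 cells, where 3 counts are 11.8 CPM). With a mouse left out the difference of CDK1 ran from 1.47 (without WT replicate 1) to 3.49 (without WT replicate 2). The other members had values between −0.66 (AURKC) and 0.11 (AURKA), AURKC standing at −0.0036 without Ctcf-cKO replicate 3, which has 0 counts of it, and at −7.00 without Ctcf-cKO replicate 1, a value that depends on the fit.

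**Figure D5:**
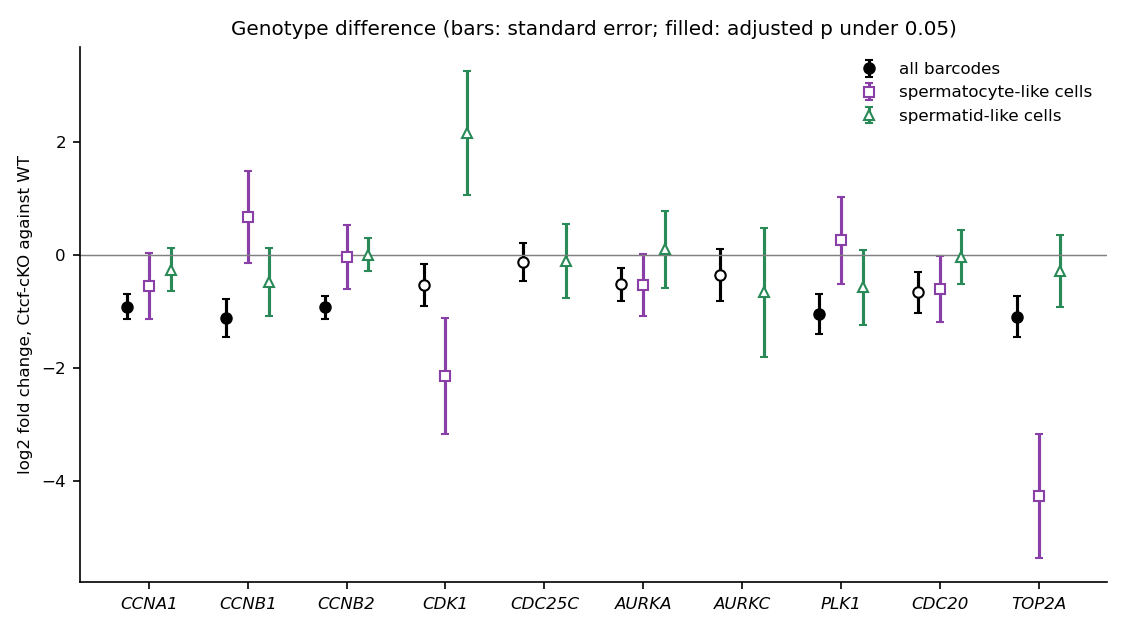
Log2 fold change between genotypes (Ctcf-cKO against WT, 2 mice each, edgeR) of each regulator over all barcodes, in spermatocyte-like cells and in spermatid-like cells, with bars of 1 standard error and filled symbols where the adjusted p is under 0.05. The 5 filled symbols belong to all barcodes, and the points far from 0 in the classes, TOP2A and CDK1 in spermatocyte-like cells and CDK1 on the other side in spermatid-like cells, have wide bars.

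Whether the genotype difference itself differed between spermatocyte-like and spermatid-like cells was tested with the mouse as a block, a test added after the values had been seen. Of 7847 genes 0% passed in edgeR and 263 had an unadjusted p under 0.05. The difference was −3.73 for TOP2A (standard error 1.41, unadjusted p = 0.0175, adjusted p = 1) and −4.17 for CDK1 (standard error 1.73, unadjusted p = 0.0285, adjusted p = 1). As the test followed from values already seen, it lends no support to the differences of TOP2A and CDK1. Leaving out each mouse in turn gave −9.37 (without Ctcf-cKO replicate 1) to −2.93 (without Ctcf-cKO replicate 3) for TOP2A and −5.97 (without WT replicate 2) to −2.88 (without WT replicate 1) for CDK1. The −9.37 depends on the fit, as spermatocyte-like cells of Ctcf-cKO replicate 3 held 0 counts of TOP2A. The other 8 members had unadjusted p-values of 0.249 or more.

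As a last description, the summed level of the 10 regulators was compared with 8368 other genes over 16 points, the 4 mice in the spermatocyte-like cluster and the 3 spermatid-like clusters, on log2(CPM + 10). The most alike were DCAF7 (Pearson r = 0.97), PWWP3A (0.96), LYAR (0.96), CLGN (0.96) and SHCBP1L (0.95), of which CLGN is a chaperone of sperm proteins. LYAR is among the round spermatid markers used to name clusters. Over the same points each regulator had r between 0.06 (CDC25C) and 0.79 (CCNA1) with the sum of the other 9, with AURKA at 0.76, CDC20 at 0.74 and CCNB2 at 0.71 near the upper end and CDK1 at 0.23 near the lower. The points share mice, libraries and depth, so that no test is given.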

How the data were processed

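Single cell 3′ RNA-seq of testis was made with the ddSEQ system, and the authors deposited 1 table of raw counts per gene and barcode for each of 4 mice. The submitters' processing notes name GRCm38 and the methods of the study Ensembl release 98. All count columns were used (0 not used). The members and lists were chosen with earlier results of these data known.

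Counts were summed over all barcodes of a library, and over cells of a class. Cells had 200 to 7000 genes, at most 10% mitochondrial counts and at least 3 times the median count of their library. Clusters were made in Seurat 5.3.0 (R 4.3.3; 2000 variable genes without the members and their partners, 15 principal components, a Harmony correction written anew, resolution 0.9) and named from markers. Scrublet (scanpy 1.11.5, Python 3.11.15) called 3, 9, 4 and 26 doublets, which were kept and left out as an alternative. Sums of at least 5 cells per mouse were tested with the quasi-likelihood test of edgeR 4.0.16 (TMM, filterByExpr, Benjamini-Hochberg adjustment over all genes tested). Standard errors were derived from the F statistic (absolute log2 fold change over its square root). Named are all members, CTCF, partners past the threshold or among the 6 with the highest mean level, and the 5 genes most like the members' sum (at least 50 counts). Alternatives were DESeq2 1.42.0, other scalings, filters, cell sets and resolutions, and each mouse left out. Counts divided by 4 and rounded up, cells above 3 times the plateau of a library, and the test of class by genotype were chosen after seeing the data. Gene positions are from GENCODE M21 and promoters from RefSeq. Every script with a test was tested on simulated data. Nothing in the labels says more of the mice than 1 library each, and p-values rest on the spread of 2 mice a genotype.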

Additional observations from a re-analysis of the deposited data

How the results depend on the processing

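No paired analysis was possible because the WT mice (1 and 2) and the Ctcf-cKO mice (1 and 3) share 1 number, so that no replicate block could be fitted. Over all barcodes the members kept their direction under the scalings and filters tried, and reversals were seen for TOP2A (0.65) in barcodes with fewer than 200 genes, along with SMC4 (0.085) and ANAPC11 (−0.088), and with a mouse left out for AURKC (−0.77 to 0.0051, the latter without Ctcf-cKO replicate 1) and FZR1 (−0.48 to 0.0079, the latter without WT replicate 2). PLK1 was lost in DESeq2 (−1.06, adjusted p = 0.0751), PLK1 and TOP2A with counts divided by 4 (−0.72 and −0.92), and CDC20 passed without a filter on low genes (−0.80, adjusted p = 0.0164) and in barcodes with fewer than 200 genes (−1.55, adjusted p = 0.0430), where CCNA1 (−0.54), CCNB1 (−1.81), CCNB2 (−0.97) and PLK1 (−0.59) were lost (adjusted p = 0.635, 0.124, 0.142 and 0.801). The genes higher and lower, 2672 and 1477, were 460 and 46 in barcodes with fewer than 200 genes, and 1374 to 2474 and 337 to 1966 with a mouse left out.

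In spermatocyte-like cells the 29 higher and 0 lower genes became 95 and 1 in DESeq2, 92 and 8 without a filter, 48 with RLE size factors, 54 with library totals alone, 5 with at least 10 counts in every library, 3 in as many barcodes as the study counts, 8 without doublets, 73 and 6 at resolutions 0.5 and 1.3, 0 in cells above 3 times the plateau, 46 with counts divided by 4, and 7 to 121 higher and 0 to 8 lower with a mouse left out. Some uncalled members changed sign there. CCNB2 was 0.045 in DESeq2, 0.028 with RLE size factors, 0.016 in as many barcodes as the study counts, and 0.064 and 0.076 at resolutions 0.5 and 1.3 (−0.74 to 0.37 with a mouse left out). PLK1 was −0.051 with at least 500 genes, −0.39 in as many barcodes as the study counts and −0.076 above the plateau, where AURKA was 0.24 (PLK1 −0.28 to 0.53 with a mouse left out). Without batch correction no fit could be made, since Ctcf-cKO replicate 3 kept 4 cells, under the minimum of 5.

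In spermatid-like cells the 27 higher and 0 lower genes became 77 and 3 in DESeq2, 7 and 0 with library totals alone, 155 and 40 without a filter, 140 with at least 500 genes, 130 and 2 in as many barcodes as the study counts, 2 at resolution 0.5, 0 without batch correction, 78 and 2 with counts divided by 4, and 34 to 165 and 4 to 67 with a mouse left out; with at least 10 counts in every library 1 was lower. Uncalled members changed sign here too. CDC20 was 0.016 in DESeq2, 0.0075 with RLE size factors, 0.088 with library totals alone, 0.0061 with at least 10 counts in every library and 0.028 with at least 500 genes. CDC25C was 0.033 with library totals alone and 0.0057 with at least 500 genes. CCNB2 was −0.091 without a filter, −0.19 with at least 500 genes, −0.21 in as many barcodes as the study counts, −0.049 without doublets, −0.040 at resolution 1.3 and −0.14 above the plateau. AURKA was −0.0030 without a filter, −0.36 with at least 500 genes, −0.22 at resolution 1.3, −0.041 above the plateau and −0.30 with counts divided by 4. TOP2A was 0.0036 above the plateau and 0.029 with counts divided by 4. Without batch correction TOP2A was 0.50, CCNA1 1.103, CCNB1 0.22, CDC25C 0.16 and PLK1 0.26. With a mouse left out TOP2A ran from −0.78 to 0.16, CCNB2 from −0.26 to 0.21, CDC25C from −0.51 to 0.41, AURKA from −0.59 to 1.43 and CDC20 from −0.59 to 0.78.

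Leaving out the filter moved the median of all genes by −0.13 over all barcodes, −0.24 in spermatocyte-like and −0.10 in spermatid-like cells, and library totals alone by 0.14 in the last. The causes of these shifts were not tested. Depth limits the classes: Ctcf-cKO replicate 3 had 52806 counts in spermatocyte-like cells, so that 3 counts are 56.8 CPM, and a regulator that did not pass there is not shown to be alike in the genotypes.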
